A study of Mus musculus with 2 samples.

Results

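The mRNAs of the cytosolic ribosomal proteins were described in polysomal RNA of mouse bone marrow-derived macrophages that carried, or lacked, Oasl1. A gene was taken as a member when its symbol on the array was a numbered Rpl or Rps symbol, optionally with 1 further letter and digit, or was Rplp0, Rplp1, Rplp2 or Rpsa. This gave 83 genes of 22088 named on the array, 33 of the small (40S) and 50 of the large (60S) subunit. Each was represented by its probe set with the highest mean signal. Rpl32 is named only by a repeated symbol and so fell outside the rule. It was measured at a log2 signal of 10.92 in the Oasl1-/- array and 11.28 in the wild-type array.

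The data comprise 2 arrays. The first held RNA of Oasl1-/- macrophages and the second RNA of wild-type macrophages, both of strain C57BL/6J. Marrow cells were differentiated over 7 days in medium with L929 supernatant, which supplies growth factor for macrophages. Both cultures were then exposed to the synthetic double-stranded RNA poly(I:C) at 10 µg/ml over 12 h. RNA came from sucrose gradient fractions 9 to 11, which hold mRNAs carrying several ribosomes, from lysates treated with cycloheximide to hold ribosomes in place. The labels do not state how Oasl1 was disrupted or how many mice gave marrow. There was 1 array per genotype, so no test between genotypes was possible, no difference has a replicate error, and "lower" and "higher" below compare 2 hybridisations.

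A eukaryotic ribosome is built from a small subunit, which reads the mRNA, and a large subunit, which joins amino acids, each made of ribosomal RNA and a full set of small, mostly basic proteins. The mRNAs of these proteins begin with a terminal oligopyrimidine (TOP) sequence, a run of C and T right at the transcription start, through which the kinase mTOR and the RNA-binding protein LARP1 shift the whole set into or out of polysomes together. Transcription of the set is also raised by MYC, a transcription factor of growing cells. OASL1 is an interferon-induced protein that binds mRNA and is known to restrain translation of Irf7 mRNA.

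The start sites of the paralogue pairs are shown because these are the members the comparison of copies turns on. The window runs from 60 bases before to 20 bases after the first start that RefSeq lists (GRCm38.p6), on the gene's own strand, and capitals mark uninterrupted runs of at least 8 pyrimidines.
Rps27l, chr9:66946026-66946105, plus strand: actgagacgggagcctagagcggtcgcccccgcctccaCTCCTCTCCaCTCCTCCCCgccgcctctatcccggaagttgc
Rps27, chr3:90213629-90213708, minus strand: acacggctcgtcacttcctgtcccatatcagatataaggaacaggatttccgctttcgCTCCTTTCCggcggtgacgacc
Rpl22l1, chr3:28805448-28805527, plus strand: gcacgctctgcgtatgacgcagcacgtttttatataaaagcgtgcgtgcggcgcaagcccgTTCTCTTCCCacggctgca
Rpl22, chr4:152325666-152325745, plus strand: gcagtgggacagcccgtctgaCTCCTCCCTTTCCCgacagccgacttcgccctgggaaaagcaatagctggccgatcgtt
In Rps27 a pyrimidine run crosses the listed start and in Rpl22l1 one begins next to it, whereas in Rps27l and Rpl22 the marked runs end upstream.

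Members that stood at the lower and upper ends of the differences between the arrays are shown next, in the same form, with Rps6, the small subunit protein that is phosphorylated downstream of mTOR. Rps12, Rps28 and Rplp0 were among the lowest and Rpl4, Rps9 and Rps24 among the highest.
Rps12, chr10:23787190-23787269, minus strand: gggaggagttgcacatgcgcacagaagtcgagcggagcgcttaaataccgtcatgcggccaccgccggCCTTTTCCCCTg
Rps28, chr17:33824543-33824622, minus strand: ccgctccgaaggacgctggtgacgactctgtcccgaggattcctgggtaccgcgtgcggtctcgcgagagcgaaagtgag
Rplp0, chr5:115559407-115559486, plus strand: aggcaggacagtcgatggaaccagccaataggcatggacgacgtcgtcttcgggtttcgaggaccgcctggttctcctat
Rpl4, chr9:64173327-64173406, plus strand: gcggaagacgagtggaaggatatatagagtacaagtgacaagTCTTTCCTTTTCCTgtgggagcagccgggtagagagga
Rps9, chr7:3703981-3704060, plus strand: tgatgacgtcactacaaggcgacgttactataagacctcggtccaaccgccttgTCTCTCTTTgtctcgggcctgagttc
Rps24, chr14:24490618-24490697, plus strand: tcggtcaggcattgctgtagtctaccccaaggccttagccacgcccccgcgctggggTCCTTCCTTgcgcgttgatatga
Rps6, chr4:86857348-86857427, minus strand: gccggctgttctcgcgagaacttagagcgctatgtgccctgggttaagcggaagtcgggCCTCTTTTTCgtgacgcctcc
A marked run crosses the start in Rps6, Rps9 and Rps24, begins downstream of it in Rps12 and ends upstream of it in Rpl4, and in Rps28 and Rplp0 the window holds none. Among the low members shown here only Rps12 holds a run, while Rpl4, Rps9 and Rps24 all hold one. Rps27l and Rpl22, shown above and also among the lowest, hold runs that end upstream. Windows this few cannot show whether runs go with the differences.

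Over the whole group, pyrimidine runs were frequent. RefSeq promoters were found for 62 of the 83 members. A run of at least 8 pyrimidines on the sense strand, between 50 bases before and 50 bases after a listed start, was present in 52 of these 62 genes (83.9%), against 39.3% of 27025 genes with a promoter entry. The reverse pattern, a purine run of that length in the same window, was present in 15 of 62 (24.2%) against 41.1% of all genes. The ETS-type motif CCGGAAG, searched on both strands of the 300-base promoter, was present in 40.3% of members and in 9.93% of all genes. The GC-box core GGGCGG was present in 61.3% and 38.2%, the E-box CACGTG, which MYC can bind, in 9.68% and 8.09%, and TATAAA in 11.3% and 15.7%. TATAAA was searched on both strands too, and none of these motifs contains another. A match describes letters in the window and is no measured site.

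The arrays had log2 signals for 35556 probe sets. A gene was counted as tested when its log2 signal reached 7 on at least 1 array. Intron control probe sets, 5222 in number, gave a guide to background, with the central 95% of their signals ending at 7.34 in the Oasl1-/- array and 7.13 in the wild-type array. This left 7835 genes, with a median difference, Oasl1-/- minus wild-type, of -0.09 on the log2 scale. Oasl1 itself, on chromosome 5 from 115373249 to 115387924 (NCBIM37), had a log2 signal of 9.14 in the Oasl1-/- array and 10.70 in the wild-type array, so 33.7% of the wild-type signal remained. Of 10 macrophage markers 9 passed the floor, at 8.99 to 12.78 in the Oasl1-/- array and 8.40 to 12.77 in the wild-type array. All 9 were level or higher in Oasl1-/-, with a median difference of 0.14, and their part in the results below was not tested. None of 28 markers of neutrophils and progenitors, dendritic cells, lymphocytes, fibroblasts and erythroid cells passed the floor, and the highest of their signals was 6.94 in the Oasl1-/- array and 6.56 in the wild-type array.

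Ribosomal protein mRNAs were among the brightest on both arrays, and nearly all stood a little lower in Oasl1-/- than in wild-type. Of the 83 members 76 passed the floor. Their log2 signals ran from 6.53 through a median of 10.74 to 12.66 in the Oasl1-/- array and from 7.19 through a median of 11.05 to 12.86 in the wild-type array. In 40 of the 76 the mean signal exceeded 10.79, the 90th percentile of the genes tested. The median difference of the 76 was -0.32 on the log2 scale, a 1.24-fold lower signal in Oasl1-/-, where the median gene differed by -0.09. All 76 were lower by some amount, where 60.6% of the genes tested were, and 72 of 76 lay below the median gene, where 50% of all genes do by definition. With a loess trend removed 75 of the 76 were lower, and after quantile normalization 74. In bulk RNA of this kind, fewer ribosome-loaded copies of an mRNA and a smaller amount of it in the cell cannot be told apart, nor can fewer cells of a type and less RNA per cell.

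**Figure D1:**
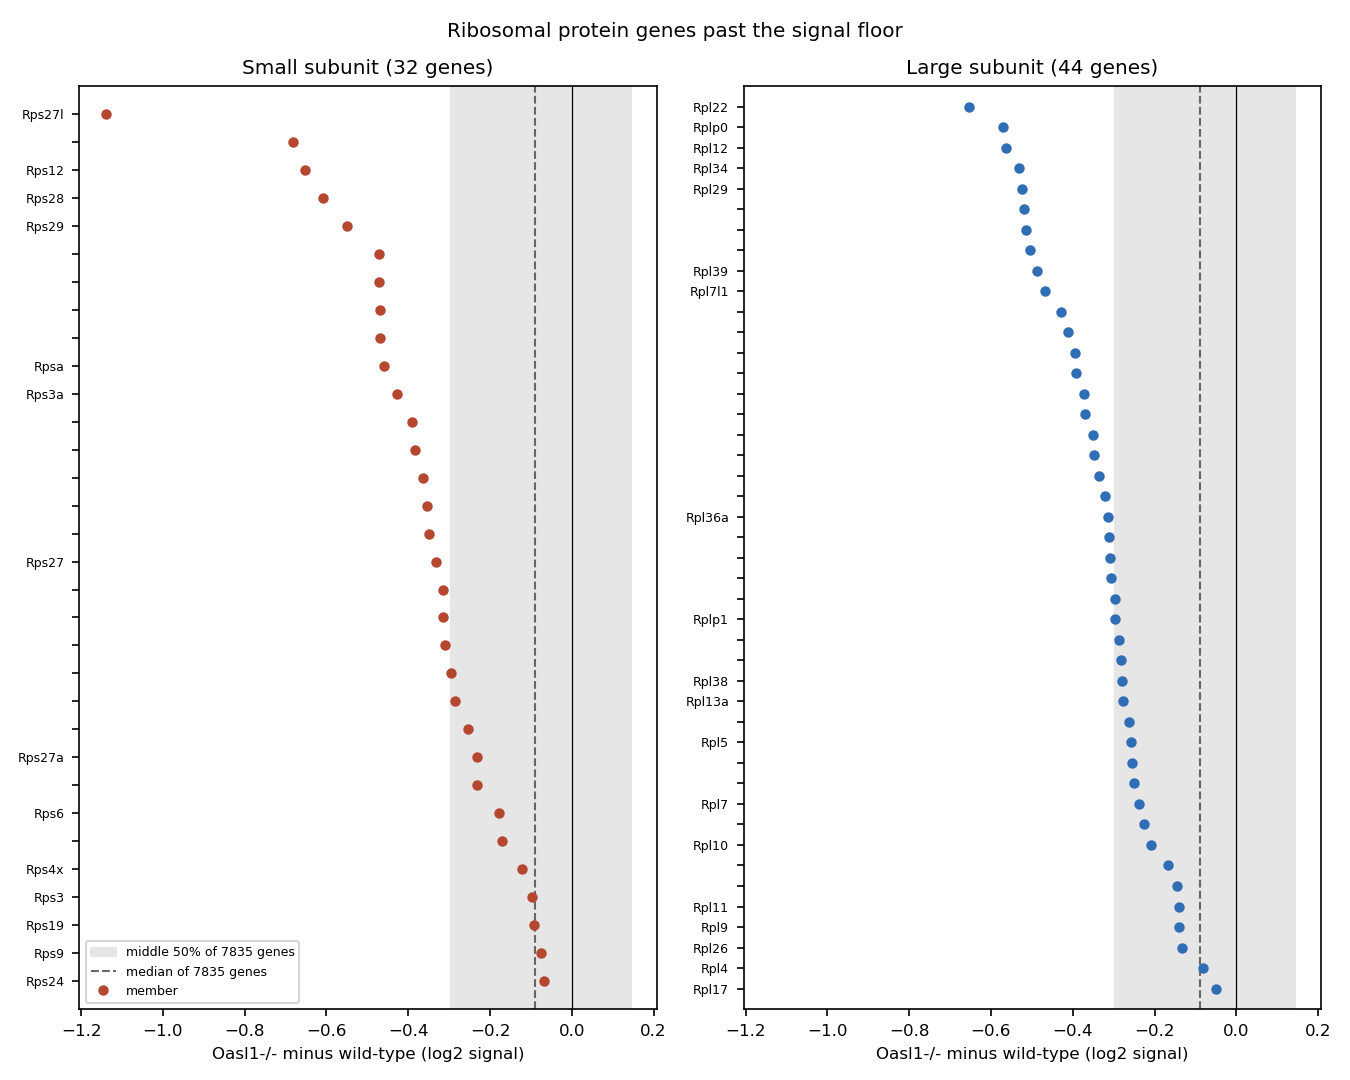
Differences of the 76 ribosomal protein genes past the floor, Oasl1-/- minus wild-type on the log2 signal scale (x axis), 1 point per gene, with the small subunit left and the large subunit right, and names beside members described in the text. All points lie left of 0, most lie near the left edge of the grey band that holds the middle 50% of the 7835 genes, and Rps27l stands alone at -1.14.

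The shift was small for each gene and narrow across the group. At least 1.5-fold lower were 5 of 76 members (6.58%), close to the background of 6.28% of all genes tested, so differences of that size were about as frequent here as elsewhere. Among the 5 were Rps27l, Rpl22, Rps12 and Rps28. Rps27l and Rpl22 were under the floor in the Oasl1-/- array and passed it only through the wild-type array, where they were higher, so the floor itself favours a lower call for them. After centring or loess 2 members, Rps27l among them, were past 1.5-fold, where 3.94% and 3.4% of all genes tested were. None was at least 1.5-fold higher, where 5.27% of all genes were, and 1.57% were at least 2-fold higher. The middle 50% of the member differences spanned 0.21 on the log2 scale, against 0.44 for all genes. Below the lower quartile of all genes, -0.30, lay 46 of the 76 members, and none lay above the upper quartile of 0.14. Differences between -0.5 and -0.2 were measured in 49 members, under -0.5 in 13 and over -0.2 in 14.

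The members also lay lower than other genes of like brightness. Other genes with a mean log2 signal from 10 to 11 had a median difference of -0.03 (941 genes), while the 24 members there had -0.36. From 11 to 12 the median was -0.29 for 27 members and 0.02 for 416 other genes, and from 12 upward it was -0.19 for 6 members and -0.01 for 166 others. All 67 members with a mean signal of 9 or more lay below the median of the other genes in their bin. Among members the brighter ones differed less, with Pearson's r of 0.46 and Spearman's rho of 0.39 between mean signal and difference across 76 genes, which share both arrays and are not independent. The dimmest members, Rpl22 and Rps27l, passed the floor only through the wild-type array, where they were higher. The floor itself thus favours such a relation, and its part was not tested.

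**Figure D2:**
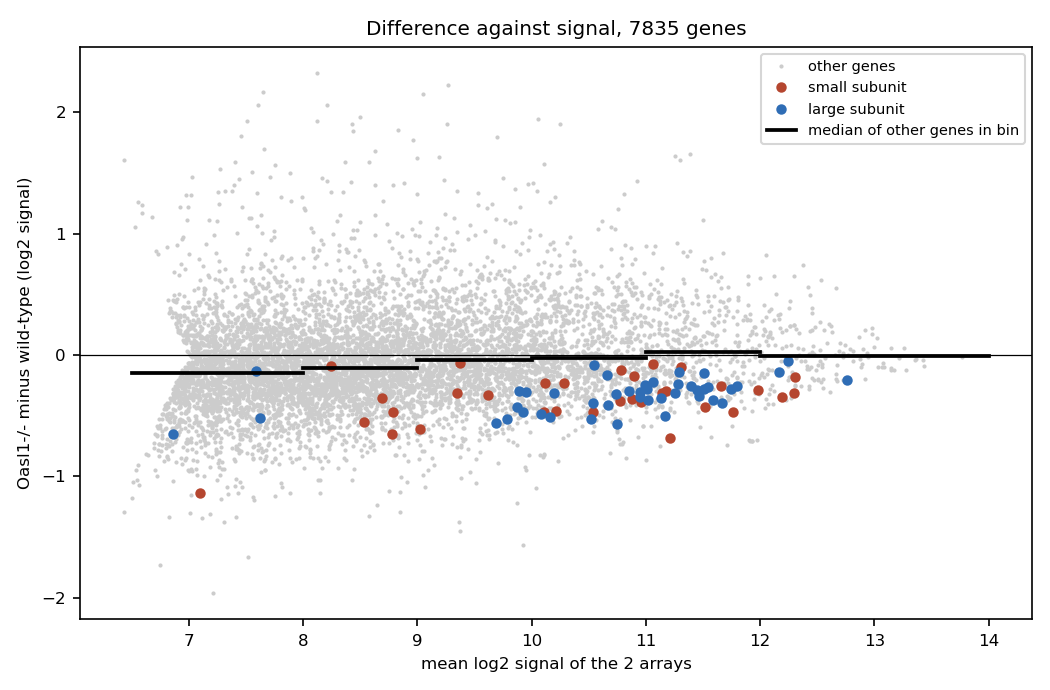
Difference, Oasl1-/- minus wild-type on the log2 signal scale (y axis), against the mean log2 signal of both arrays (x axis) for the 7835 genes tested, with small and large subunit genes in colour and the median of the other genes in each signal bin as a black line. From a mean signal of 9 upward every member lies below the black line, and the distance narrows for the brightest genes.

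Both subunits gave similar values. The 32 small subunit genes past the floor had a median difference of -0.34 and the 44 large subunit genes one of -0.31, a gap of -0.03 that is small beside the SD over genes of 0.22 in the small and 0.14 in the large subunit. At least 1.5-fold lower were 4 of 32 small subunit genes, Rps27l among them, and 1 of 44 large subunit genes, Rpl22, where 6.28% of all genes were. Below the median gene lay 30 of 32 and 42 of 44. Without the paralogue copies the medians were -0.33 over 31 genes and -0.31 over 43.

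Among small subunit genes, 4 were at least 1.5-fold lower in the deposited signals, with Rps27l, described below with its parent, the lowest. Rps12, a protein of the beak of the 40S head, had 8.46 in the Oasl1-/- array and 9.11 in the wild-type array. Rps28, which lies near the mRNA exit, had 8.72 in the Oasl1-/- array and 9.32 in the wild-type array. Both reached 1.5-fold in the deposited signals. Rps29, a zinc-binding protein of the 40S head, fell short of it at 8.26 in the Oasl1-/- array and 8.81 in the wild-type array.

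The small subunit genes that differed least were Rps24, Rps9, Rps19, Rps3 and Rps4x. Rps24 had a log2 signal of 9.34 in the Oasl1-/- array and 9.41 in the wild-type array. Rps9 had 11.03 in the Oasl1-/- array and 11.10 in the wild-type array. Rps3, which lines the mRNA entry channel and also binds NF-kB p65, had 11.26 in the Oasl1-/- array and 11.35 in the wild-type array. Rps24 and Rps9 were thus nearer to 0 than the median of all genes. Rps19, a frequent site of mutation in human Diamond-Blackfan anaemia, had 8.20 in the Oasl1-/- array and 8.29 in the wild-type array, and the X-linked Rps4x had 10.72 and 10.85 in the same order. Rps6 had 12.21 in the Oasl1-/- array and 12.39 in the wild-type array, and Rpsa, also known as the laminin receptor precursor, 9.99 in the Oasl1-/- array and 10.45 in the wild-type array. The 14 genes of the 40S head had a median difference of -0.36. Of these 2, Rps12 and Rps28, were at least 1.5-fold lower, where 6.28% of all genes tested were. Both fell short of it when read on their own chromosomes, at -0.56 and -0.45.

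Among large subunit genes, Rpl22 had the largest difference in the deposited signals, but it lay under the floor in the Oasl1-/- array. It was -0.37 with a loess trend removed and -0.51 with a pseudocount of 32, both smaller in size than those of Rplp0 and Rpl12. A pseudocount shrinks differences more at lower signal. After centring and after quantile normalization the Rpl22 difference was -0.57, in both still larger in size than those of Rplp0 and Rpl12. Rplp0 and Rpl12 belong to the stalk base, the part of the large subunit that recruits elongation factors. Rplp0, which anchors the stalk, had 10.46 in the Oasl1-/- array and 11.03 in the wild-type array. Rpl12, its neighbour, had 9.41 in the Oasl1-/- array and 9.97 in the wild-type array. Both were close to 1.5-fold lower in Oasl1-/-, with differences of -0.57 and -0.56, whereas the stalk protein Rplp1, at 10.71 in the Oasl1-/- array and 11.00 in the wild-type array, differed by -0.30. Rplp2, the partner of Rplp1, was below the floor on both arrays and could not be read. Rpl34, which had 9.51 in the Oasl1-/- array and 10.05 in the wild-type array, and Rpl29, which had 10.26 and 10.79 in that order, were also among the 10 lowest members.

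The large subunit genes that differed least were Rpl17, Rpl4, Rpl26, Rpl9 and Rpl11. Rpl17, a protein at the exit of the peptide tunnel, had 12.22 in the Oasl1-/- array and 12.27 in the wild-type array. Rpl4, which reaches into the tunnel, had 10.51 in the Oasl1-/- array and 10.59 in the wild-type array. Rpl26, also near the tunnel exit, had 7.52 and 7.65 in that order. These are 3 of 9 genes of the peptide tunnel region, but Rpl22, at the other end of the range, belongs to that region too, and the median of the 9 was -0.31, the same as that of the large subunit. Rpl9 had 12.09 in the Oasl1-/- array and 12.23 in the wild-type array. The partners of 5S RNA, which bind MDM2 when ribosome assembly fails, differed by -0.14 for Rpl11 and -0.26 for Rpl5.

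Members with roles outside the ribosome or special to a tissue, X-linked members and ubiquitin fusions ranged from -0.49 to -0.09. By brightest probe set Rps19 and Rps3, given above, were nearest to no difference, but the other Rps19 probe sets differed by -0.22 to -0.21. Rpl13a, which in human monocytes leaves the ribosome after interferon-gamma treatment to silence inflammatory mRNAs, had 11.61 in the Oasl1-/- array and 11.88 in the wild-type array. Rpl38, which in mouse embryos is needed for translation of Hox mRNAs, had 10.87 in the Oasl1-/- array and 11.15 in the wild-type array. Both differed by -0.28. The X-linked members other than Rps4x were Rpl10, at -0.21, Rpl36a, at -0.31, and Rpl39, at -0.49. Ribosomal proteins that are made as fusions with ubiquitin or a ubiquitin-like protein differed by -0.23 for Rps27a and -0.20 for Fau, which carries another name and is not a member by the rule.

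Rps27l and its parent Rps27 differed most among the paralogue pairs. Rps27l encodes a near-copy of Rps27 and is known as a target gene of p53. Its probe set of 17 probes lies on chromosome 9 from 66793924 to 66797318 on the plus strand (NCBIM37). It had a log2 signal of 6.53 in the Oasl1-/- array and 7.67 in the wild-type array, a 2.20-fold lower signal in Oasl1-/-, where 0.651% of all genes were at least 2-fold lower. Rps27, with 38 probes on chromosome 3 from 90016657 to 90017219 on the minus strand, had 9.45 in the Oasl1-/- array and 9.78 in the wild-type array. The difference was -1.14 for Rps27l and -0.33 for Rps27, which lay in the middle of the group, a gap of -0.81 between the copies. Because the Rps27l signal in the Oasl1-/- array was under the floor, the size of its difference is poorly bounded. It was -0.93 with a loess trend removed and -0.92 with a pseudocount of 32, under 2-fold in both. After centring it was -1.05 and after quantile normalization -1.06, past 2-fold in both.

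Rpl22 and Rpl22l1 had signals near or under the upper limit of the intron controls, so their differences are given as values only. Rpl22, an RNA-binding protein of the tunnel exit surface that is known to repress expression of Rpl22l1 in mice, had 6.54 in the Oasl1-/- array and 7.19 in the wild-type array. Its probe set holds 14 probes on chromosome 4 from 151699835 to 151708180 on the plus strand (NCBIM37). Rpl22l1 had 5.17 in the Oasl1-/- array and 5.81 in the wild-type array, below the floor on both. The difference was -0.64 for Rpl22l1 and -0.65 for Rpl22. The gap between them, Rpl22l1 minus Rpl22, was 0.01 in the deposited signals and -0.13 after quantile normalization, so its direction is not settled. It was 0.20 with a loess trend removed. Loess moved Rpl22l1 by the same amount as the dimmer Rpl30 and Rpl39l, so the 0.20 rests on an edge value of the trend.

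Of the other copies Rpl7l1 and Rpl36al were readable. Rpl7l1 had 9.69 in the Oasl1-/- array and 10.16 in the wild-type array, a difference of -0.47 where its parent Rpl7 differed by -0.24. Rpl36al, which falls outside the naming rule, had 10.51 in the Oasl1-/- array and 11.04 in the wild-type array, a difference of -0.53 where Rpl36a differed by -0.31. In these pairs, as for Rps27l, the copy differed by more than the parent. Rpl3l, known as a striated muscle form, had 4.29 in the Oasl1-/- array and 4.25 in the wild-type array, and Rpl39l and Rpl10l, known from testis, were under the floor as well, at 2.95 on both arrays and at 6.21 and 6.44.

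**Figure D3:**
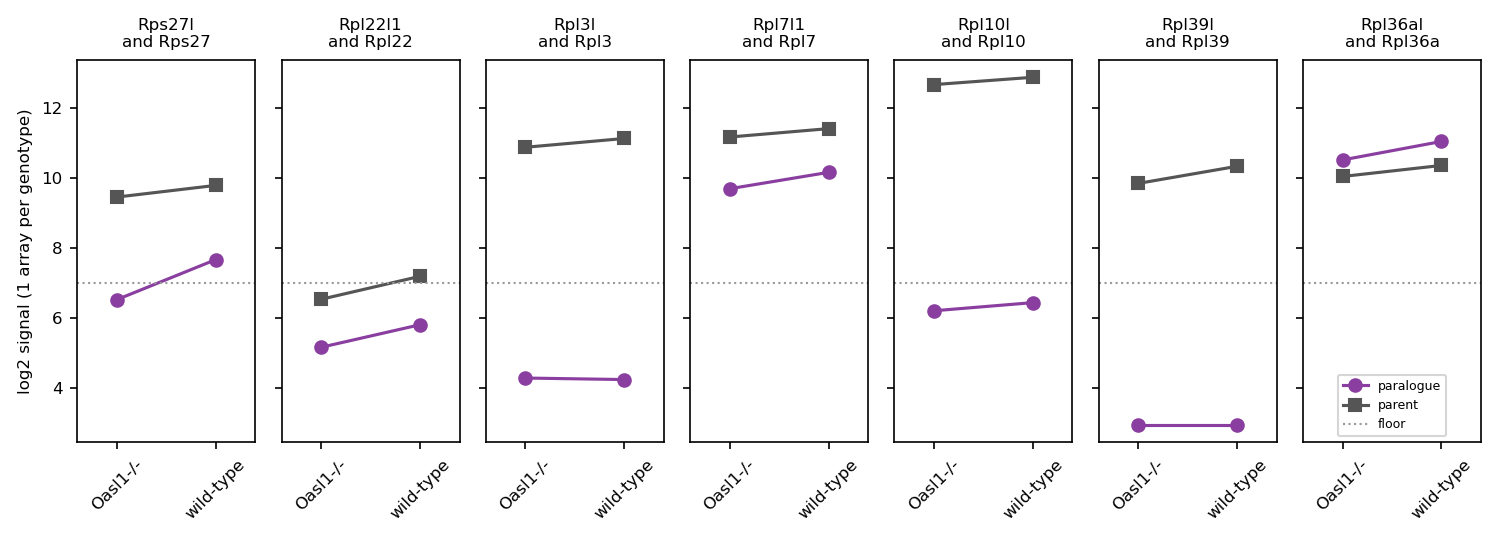
Log2 signal (y axis) of each paralogue (circles) and its parent (squares) in the Oasl1-/- array (left) and the wild-type array (right), 1 array per genotype, with the floor of 7 as a dotted line. The slope, not the height, can be compared between probe sets, and the line of Rps27l is the steepest, with its Oasl1-/- point under the floor.

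The 7 members below the floor were Rpl22l1, Rpl10l, Rpl3l, Rpl39l, Rps4y2, Rpl30 and Rplp2. Rpl30 and Rplp2 encode standard proteins of every ribosome, yet Rpl30 had 4.18 in the Oasl1-/- array and 4.23 in the wild-type array, and Rplp2 had 5.59 and 5.27 in that order. Each has 1 probe set, of 19 and 14 probes. A gene of this group below the floor on the array was thus not shown to be absent from polysomes. Rps4y2 had 6.91 in the Oasl1-/- array and 6.67 in the wild-type array.

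Most members were measured many times over on the same array, because their sequences are repeated across the genome in processed copies. The 83 genes had 406 probe sets, with a median of 3 and a highest number of 28 for Rpl29, and 80.7% had over 1, against 8.24% of all genes on the array. For 48 of 83 members the brightest probe set lay on another chromosome than the gene that RefSeq lists under that name, so its signal may combine the gene and its copies. The match was by chromosome and not by position, so a copy on the same chromosome counts as the gene's own. Rps13, Rpl35a, Rpl41, Rpl17, Rpl27, Rpl29, Rpl31, Rps4x and Rps9 each had probe sets at separate places on that chromosome. All 391 member probe sets past the floor were lower in Oasl1-/-, with a median of -0.34. By brightest probe set 60.6% of all genes tested were lower. Genes with many probe sets, such as Rpl29, weigh more in the 391. In 62 members that had such probe sets both on and off the gene's chromosome, the brightest of each kind had median differences of -0.31 and -0.34, and in 51 of the 62 these differed by under 0.1. The probe sets of a gene share hybridisation, RNA and often probes (33 gave exactly the values of another), so these are no replicates.

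A few genes depended on which probe set was read. These were picked after their values were seen. For Rps3a, a component of the 40S body, 2 probe sets differed by -0.43 and -0.41, but the third, of 11 probes, had 8.43 in the Oasl1-/- array and 10.00 in the wild-type array, a difference of -1.57. For Rps12 the range ran from -0.71 to 0.33, where 0.33 belongs to a probe set with signals of 3.40 in the Oasl1-/- array and 3.07 in the wild-type array, far under the floor. Rpl34 spanned -0.69 to -0.18, and the highest value belongs to the probe set on the gene's own chromosome. Read on their own chromosomes, Rps12 differed by -0.56 and Rps28 by -0.45, both short of 1.5-fold, while Rplp0 reached it at -0.61. Rpl17 differed by -0.16 and -0.19 at separate places on its own chromosome, against -0.05 for its brightest probe set. The probe set of Rpl12 on its own chromosome was below the floor, at 4.16 in the Oasl1-/- array and 4.22 in the wild-type array, so the value for Rpl12 rests on the 7 probe sets elsewhere, which lay between -0.57 and -0.52. For Rpsa the brightest probe set, at -0.46, stood outside the other 4, which lay between -0.27 and -0.20. For Rps19 the brightest, of 9 probes, differed by -0.09 and the others, of 48 to 56 probes, by -0.22 to -0.21. In 56 of the 64 tested members with several probe sets past the floor the range was under 0.2.

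**Figure D4:**
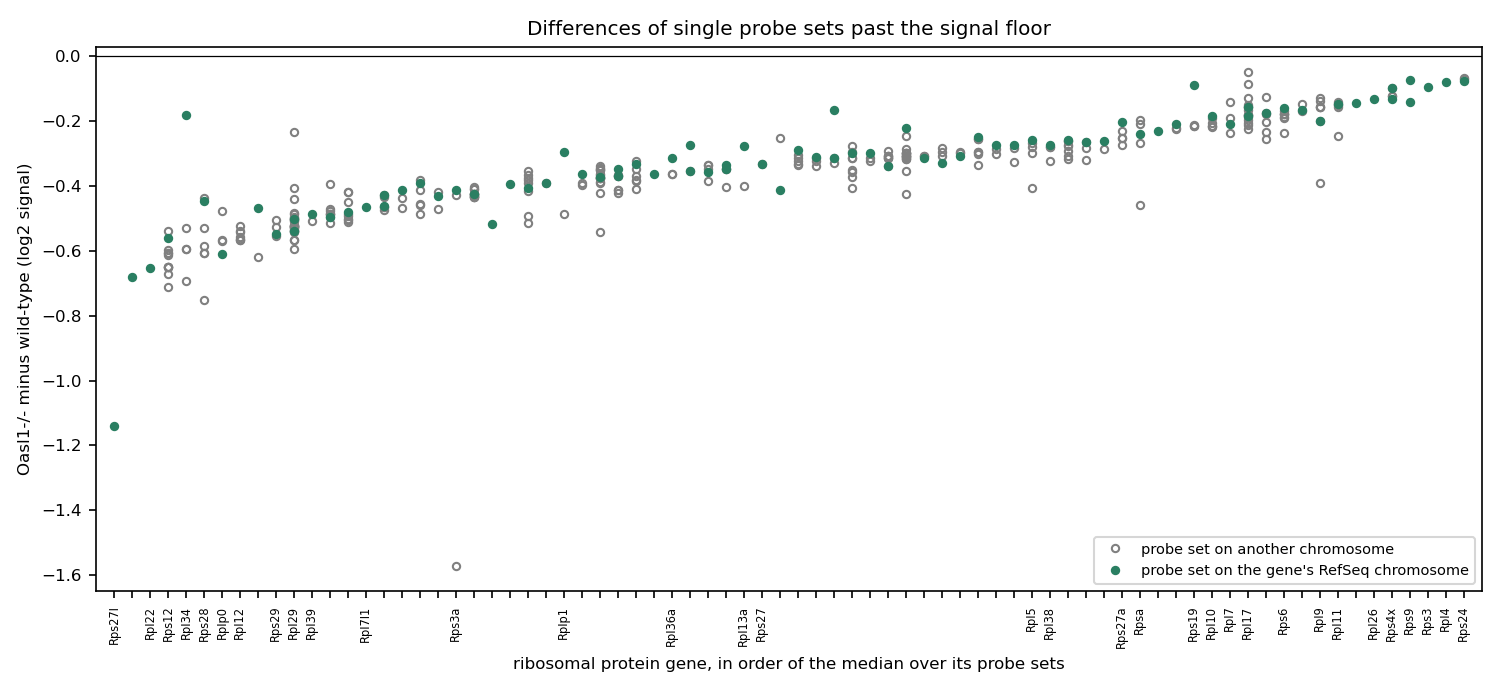
Difference, Oasl1-/- minus wild-type on the log2 signal scale (y axis), of each of 391 probe sets past the floor, by gene (x axis, in order of the median over its probe sets, with names for members described in the text), with probe sets on the gene's RefSeq chromosome filled and others open. All lie below 0, probe sets of most genes lie within 0.2 of each other, and the probe set of Rps3a at -1.57 stands far from the others.

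Lists of related genes were lower as well, and the ribosomal proteins were not the lowest of them. Ribosome biogenesis factors, which make and assemble the subunits in the nucleolus, had a median difference of -0.45 over 35 genes past the floor. At least 1.5-fold lower were 14 of them, led by the rRNA pseudouridine synthase Dkc1 at -1.34, Gnl3 at -0.99 and Utp20 at -0.94. Dkc1, Gnl3, Utp20, Polr1b and Nop58, all among the 14, were under the floor in the Oasl1-/- array. They passed it only through the wild-type array, so the floor itself favours a lower call for them. Mitochondrial ribosomal proteins, which are encoded in the nucleus and translated on cytosolic ribosomes, had a median of -0.30 over 64 genes. Of these 61 were lower, where 60.6% of all genes tested were. At least 1.5-fold lower were 9, with Mrpl41 2.01-fold lower, Mrps26 at -0.85 and Mrps18b at -0.76. Among the 9, Mrps35 too passed the floor only through the wild-type array. The cytosolic set lay between the mitochondrial and biogenesis lists in its median. It had the lowest share of 1.5-fold differences of the 3 lists, 5 of 76 against 9 of 64 and 14 of 35, where 6.28% of all genes tested were that much lower. These lists differ in brightness, with median log2 signals in the Oasl1-/- array of 10.74 for the cytosolic set, 8.19 for the mitochondrial set and 7.91 for biogenesis factors. Among genes that are no members, the share at least 1.5-fold lower was 10.4% below a mean signal of 8 and 2.34% from 10 to 11, and the part of brightness in the order of the lists was not tested. Spread over genes was 0.18 (SD) for the cytosolic set, 0.23 for the mitochondrial set and 0.31 for biogenesis factors.

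Other mRNAs with a TOP sequence differed in the same direction by less. The 19 of 20 listed genes past the floor had a median of -0.22, 18 of them lower, 15 below the median gene and 1 at least 1.5-fold lower. Of all genes tested 60.6% were lower, 50% below the median gene and 6.28% at least 1.5-fold lower. The 1.5-fold share of the list, 5.26%, is near that background. Nap1l1, a histone chaperone, was lowest at -0.85, with Naca, which guides nascent chains, next at -0.47. Fau stands in this list too. Eef1a1 (-0.04) and Pabpc1 (0.04), named after their values were seen, are classical TOP mRNAs and lay near 0. Of p53 targets, the group Rps27l belongs to, 12 of 19 passed the floor, with a median of -0.17, 7 below the median gene and 1 at least 1.5-fold lower. These shares, 58.3% and 8.33%, are close to the 50% and 6.28% of all genes tested. Sesn1 differed by -1.24 and Zmat3 by -0.55, while Mdm2 differed by 0.32.

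**Figure D5:**
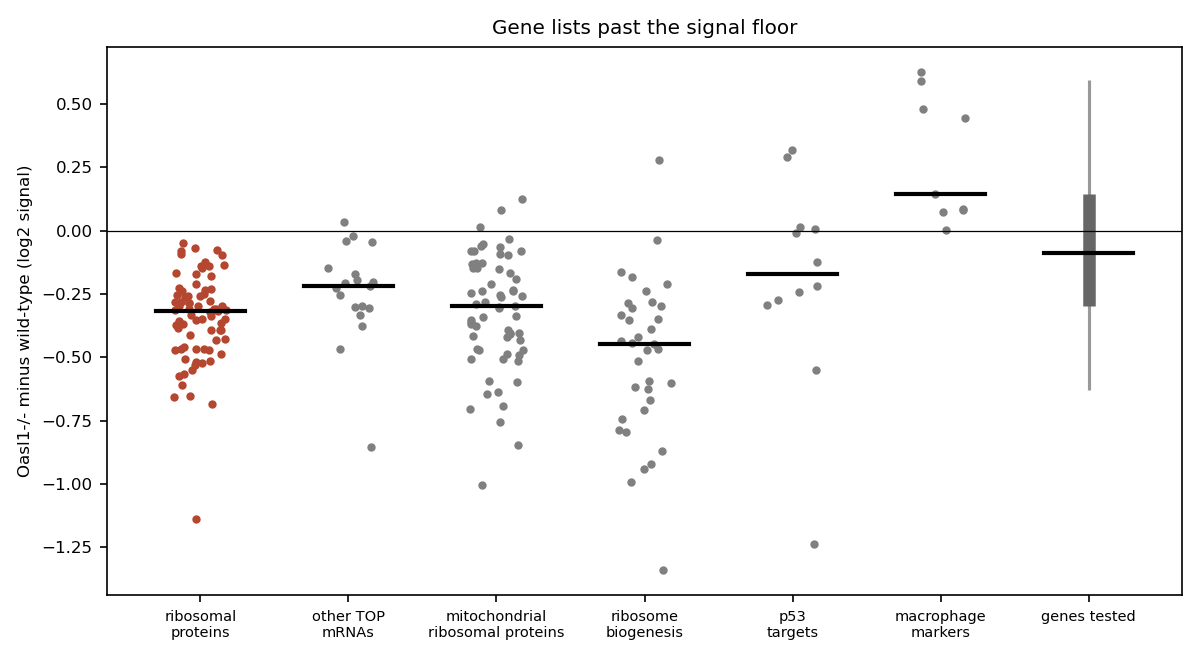
Differences, Oasl1-/- minus wild-type on the log2 signal scale (y axis), of genes past the floor in the ribosomal protein set and in 5 other lists (x axis), 1 point per gene with the median as a black line, and for all genes tested the central 90% (thin line) and middle 50% (thick line). The ribosomal proteins form a narrow band around -0.32, the biogenesis factors lie lower at a median of -0.45, and the macrophage markers lie at or above 0.

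For most promoter features the members with and without it had similar medians, and the exception was TATAAA. Past the floor, the 48 members with a pyrimidine run near the start had a median difference of -0.31 and the 9 without one -0.35. Those with CCGGAAG had -0.35 (23 genes) and those without it -0.31 (34 genes), and those with CACGTG had -0.28 (6 genes) against -0.31 (51 genes). With GGGCGG the median was -0.31 (35 genes) and without it -0.30 (22 genes). The 6 genes with TATAAA had a median of -0.53 against -0.31 for the other 51, a gap as wide as the middle 50% of the members. These groups were formed after the values were known and are given with no test.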

How the data were processed

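Polysomal RNA was measured on Affymetrix Mouse Gene 1.0 ST arrays, 1 per genotype. The authors deposited log2 signals, which are RMA values per the submitters' processing notes. Background was corrected, the arrays were brought to a shared distribution and the probes of a set summarised. A difference common to all mRNAs is thus largely lost. The deposited signals did not match fully, with a median over probe sets of 5.13 in the Oasl1-/- array and 5.04 in the wild-type array. Scans went through GCOS, per the labels, and the design text names the R affy package 2.9.2 and Expression Console 1.1 as well. The deposited log2 ratio equalled Oasl1-/- minus wild-type in all 35556 rows, and the deposited fold was its unsigned linear ratio.

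Symbols came from the table's annotation (NCBIM37). For each gene the probe set with the highest mean signal was used, with equal values broken by identifier, and genes were tested when the higher log2 signal reached 7. Promoter sequences are RefSeq's, on GRCm38.p6. For the check of chromosomes all 83 members matched the RefSeq gene table, by accession or symbol. The members and lists were chosen with earlier results of these data known. Named genes were the 10 lowest and 10 highest members, the paralogue pairs, the role groups and the 3 largest differences of each list. Some genes that this rule would name are not reported here. Alternatives were centring on the median gene, loess (span 0.3), quantile normalization, a pseudocount of 32, other floors and other choices of probe set. Python 3.11.15, pandas 2.3.3 and statsmodels 0.14.6 were used. The number of arrays limits the precision.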

Additional observations from a re-analysis of the deposited data

How the results depend on the processing

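With 1 array per genotype, values were compared across settings without a replicate error; a value counted as moved at 0.1 on the log2 scale, a count at 1.5 times. Of 91 recomputed values 80 stayed within these limits, 10 moved and 1 changed sign. The median of all members lay between -0.33 and -0.23 in the settings run, lowest with the mean of all probe sets and highest after centring. Members at least 1.5-fold lower numbered 2 after centring and after loess, against 5 in the deposited signals. They numbered 3 after quantile normalization, with a pseudocount of 32 and with a floor of 8, and 1 with a floor of 10. The share of all genes tested that were that much lower fell too, from 6.28% in the deposited signals. It was 3.94% after centring, 3.4% after loess and 4.22% after quantile normalization. With the pseudocount it was 4.12%, with a floor of 8 5.17% and with a floor of 10 2.91%. Centring takes the median of -0.09 from every difference and the pseudocount shrinks every difference, so by construction both can only reduce these counts. The floors of 8 and 10 admit fewer genes by construction (72 and 62 members). The causes after loess and quantile normalization were not tested. The gap of Rps27l to Rps27 was -0.64 after loess and -0.60 with the pseudocount, against -0.81. That of Rpl22l1 to Rpl22 was 0.20 after loess, 0.14 with the pseudocount and -0.13 after quantile normalization. The loess value rests on an edge value of the trend, and a pseudocount shrinks the difference of the dimmer Rpl22l1 more. The cause of the change after quantile normalization was not tested. Single-gene values do not depend on the floor and were not rerun with it. Taking the probe set on the gene's own chromosome, an alternative chosen after the data were seen, gave a median of -0.31 over 75 members, all lower, but -0.18 for Rpl34 in place of -0.53, and the mean of all probe sets gave -0.80 for Rps3a in place of -0.43. No paired analysis was possible because there is 1 array per genotype. Members near the floor, Rps27l and Rpl22, are limited by signal over background.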
